A study of Mus musculus with 4 samples.

Results

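Krüppel-like factors (KLFs) are transcription factors with zinc fingers near the carboxyl end that bind GC-rich and CACCC-type DNA. The 10 genes described here, Klf2, Klf3, Klf4, Klf6, Klf7, Klf9, Klf10, Klf11, Klf13 and Klf16, are members of this family among 17300 genes in the deposited table. They were picked by name with the differences between KO and WT in these libraries already known, so for these 10 genes the differences are a description and carry no test. All 10 were in the table, and all 10 passed the filter on low values that left 11864 genes. The samples were dendritic cells sorted from mouse spleen, as 2 KO and 2 WT libraries of total RNA. Genotype is given as KO or WT only, with titles that begin EKO or WT. The gene that was deleted, the strain, the sex, the age and any treatment of the animals are not stated in the sources used here. The series title concerns Siglec-E, an inhibitory receptor for sialic acid, in transplant rejection and in how antigen-presenting cells are activated. The table's column names start with Allo, a word that the sources used here do not explain. The question the comparison addresses is then how sorted splenic dendritic cells differ in RNA between the 2 genotypes.

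The family divides by its partners outside the zinc fingers. Klf2, Klf4, Klf6 and Klf7 belong to a branch known mainly as activators, Klf9, Klf10, Klf11, Klf13 and Klf16 recruit the SIN3 corepressor, and Klf3 recruits the corepressor CtBP. In immune cells KLF2 is known for keeping lymphocytes quiescent and for their trafficking, KLF4 for monocyte differentiation and a part of the type 2 conventional dendritic cells, and KLF6 for inflammatory gene expression in macrophages. Several members, Klf2, Klf4, Klf6 and Klf10 among them, are also known as genes that respond quickly to growth factors, shear stress or inflammatory signals.

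The values are log2 values after a variance-stabilizing transform, with a floor of 8.04 in all libraries. Low values are compressed on this scale, so the difference of a weakly expressed gene is understated. Undoing the transform gave normalized counts, which summed to 30952251 and 30274060 in KO libraries A and B, and to 29002408 and 29377044 in WT libraries 1 and 2 after the authors' scaling, so the depth in reads is not known. The KO columns carry other numbers than the KO titles, so those libraries are named A and B here (KO A, KO B). Siglece, the gene of Siglec-E, read 8.92 and 8.96 in KO libraries A and B, against 10.38 and 10.14 in WT libraries 1 and 2. Ddx3y, a Y-linked gene, read 8.74 in KO A and 12.13 in KO B, with 11.82 and 11.97 in WT libraries 1 and 2. KO A thus stands apart in Y-linked RNA, and the difference of each of the 10 genes is given below also without it. No source used here says whether the libraries of a genotype are from separate animals, so the spread between them may be technical. In bulk RNA, fewer cells of a type and less RNA per cell cannot be told apart.

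Start regions of 4 members are shown because they hold every match to the EGR, MEF2, FOXO and AP-1 motifs found among the members. The windows come from RefSeq promoters on GRCm38.p6, an older build than the authors' GRCm39, and 8 of 10 members had an entry. Each sequence runs 5′ to 3′ on the strand of the gene and begins 250 bases before the gene's start. Capitals mark matches on either strand, where N in a motif allows any base. In Klf2, Klf4 and Klf3 they mark the EGR motif GCGNGGGCG (2 matches run into each other in Klf3). The second run of capitals in Klf2 is the MEF2 site. In Klf9 capitals mark the FOXO motif GTAAACA followed by TGAATCA. The latter matches the AP-1 motif, searched as TGANTCA, with A at the N.
Klf2, chr8:72318812-72319011, plus strand: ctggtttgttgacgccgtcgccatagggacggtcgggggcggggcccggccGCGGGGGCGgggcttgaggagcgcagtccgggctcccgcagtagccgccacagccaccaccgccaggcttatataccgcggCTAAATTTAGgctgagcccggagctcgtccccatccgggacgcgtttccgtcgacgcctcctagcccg
Klf4, chr4:55532526-55532725, minus strand: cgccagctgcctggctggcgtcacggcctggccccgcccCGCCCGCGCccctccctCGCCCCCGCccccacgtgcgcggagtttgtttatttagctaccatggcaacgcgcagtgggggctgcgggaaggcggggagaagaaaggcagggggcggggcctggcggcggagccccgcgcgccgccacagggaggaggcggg
Klf9, chr19:23140976-23141175, plus strand: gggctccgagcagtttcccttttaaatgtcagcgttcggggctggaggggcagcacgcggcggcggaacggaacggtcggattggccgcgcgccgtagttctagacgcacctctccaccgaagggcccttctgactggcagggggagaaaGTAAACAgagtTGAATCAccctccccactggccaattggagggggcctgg
Klf3, chr5:64803271-64803370, plus strand: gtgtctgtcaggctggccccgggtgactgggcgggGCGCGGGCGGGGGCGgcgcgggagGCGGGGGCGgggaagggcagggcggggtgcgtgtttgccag

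Over the whole 300-base windows, the EGR motif was found in 3 of 8 KLF promoters and in 5.55% of all 32851 promoters in the RefSeq table. The MEF2 site was found in the window of Klf2, where it begins 118 bases before the start, and in 3.19% of all promoters. The GC box GGGCGG, which overlaps EGR matches in these windows, was in 7 of 8 KLF promoters, all but that of Klf9, and in 35.7% of all promoters. The CACCC box CCACCC was in 4 of 8 against 31.5%, CCAAT in 4 of 8 against 37.4%, and TGACG, the core of the cAMP response element, in 5 of 8 against 20.8%. The AP-1 motif, searched with any base at its centre, was in 1 of 8 against 7.81%, and the FOXO motif in 1 of 8 against 3.65%. The full cAMP response element TGACGTCA, the TATA motif TATAAA, the CArG box and the NF-kB site had 0 matches in the 8 windows, against 1.79%, 13.6%, 1.63% and 4.51% of all promoters. The windows of the 8 members held between 58.3% and 77.7% G and C, against a median of 52.7% over all promoters. These matches are descriptions of letters. The EGR motif occurs in Klf2 and Klf4, whose KO values lay above WT, and also in Klf3, whose groups overlapped.

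**Figure D1:**
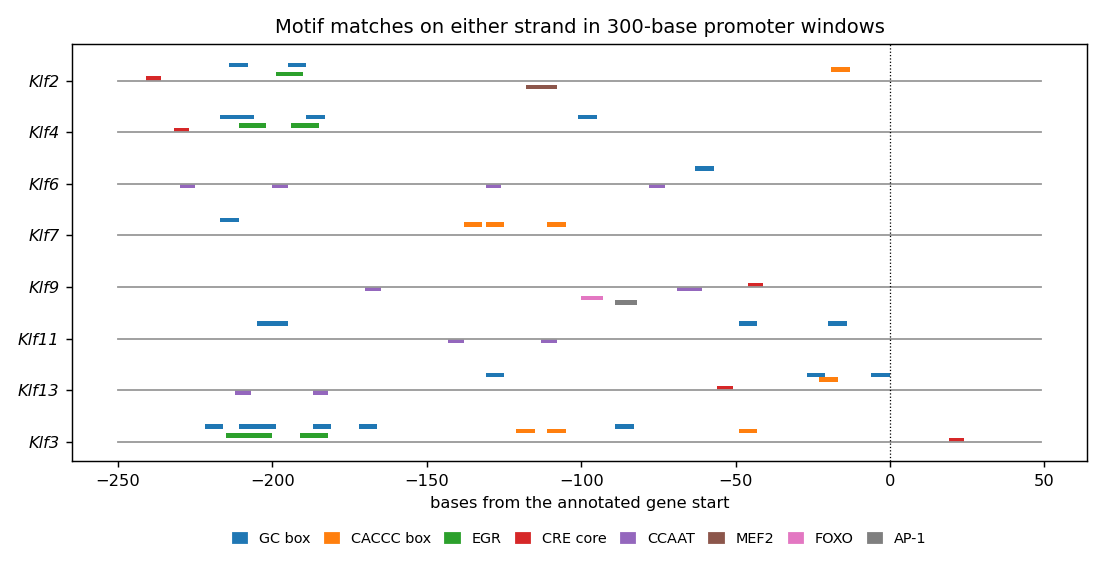
Motif matches in the 300-base promoter windows of 8 KLF genes, by distance in bases from the annotated gene start (dotted line at 0). Each bar is 1 match on either strand, coloured by motif and set at a height of its own for each motif. The EGR bars of Klf2, Klf4 and Klf3 lie over or beside GC boxes, and Klf2 alone among the 8 has a MEF2 bar.

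In KO libraries 9 of the 10 KLF genes had a higher mean than in WT, and in the same 9 both KO libraries lay above both WT libraries, the exception being Klf3. Among all genes tested, 28.1% had both KO libraries above both WT libraries and 28.2% had both below. The median difference of the 10 genes was 0.55 log2 units, against -0.0017 over all genes tested. With limma and a Benjamini-Hochberg adjusted p of 0.05 over all genes, 6 of 10 members passed as higher (Klf2, Klf4, Klf6, Klf10, Klf11 and Klf13) and 0 as lower, against 4.69% of all genes tested as higher, 2.23% as lower and 6.93% in either direction. Since this contrast was in view when the genes were picked, nothing is read from these counts. These 6 calls did not hold without KO A or without KO B, and the same was so for nearly all genes called. Such fits leave a single library in a group, so for them the size of each difference is given below.

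**Figure D2:**
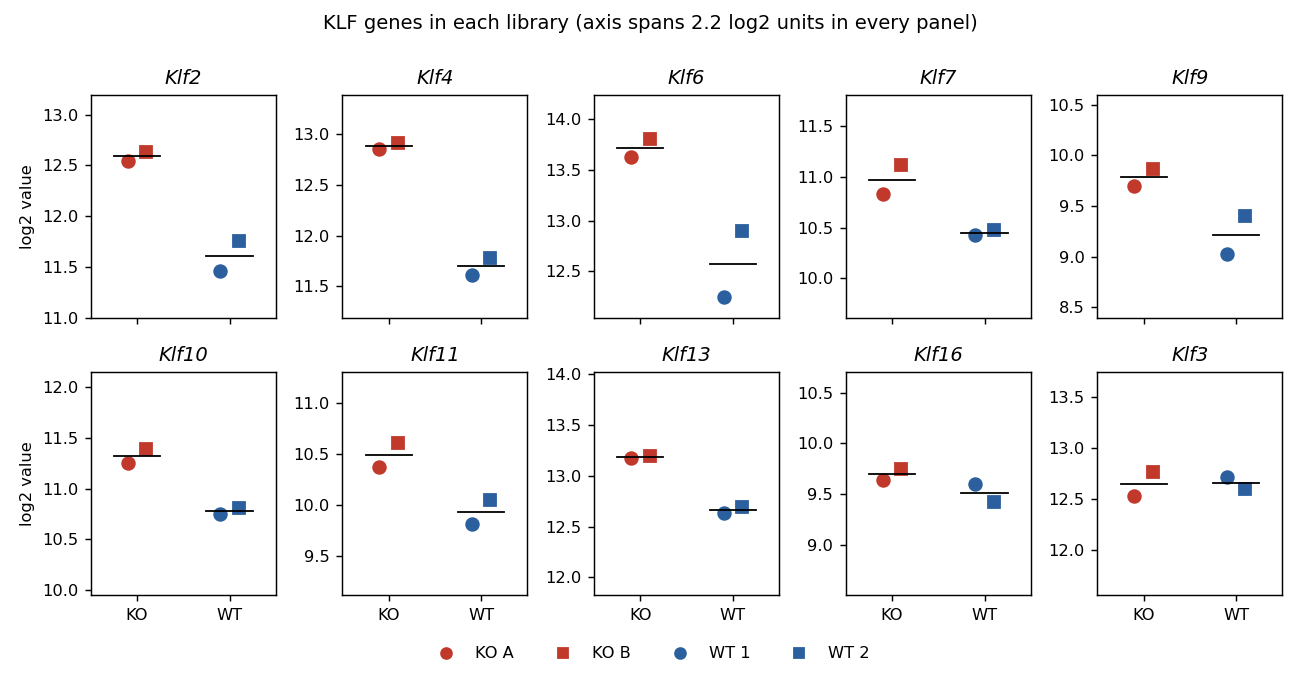
Log2 values of the 10 KLF genes in each library, with KO in red and WT in blue and a black bar at each group mean of 2 libraries. Every panel spans 2.2 log2 units. KO points lie above WT points in 9 panels, with the widest distance in Klf4 and overlapping groups in Klf3.

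Klf4, a factor of monocytes and of part of the conventional dendritic cells, had the largest difference of the 10. It read 12.85 and 12.92 in KO libraries A and B, against 11.61 and 11.78 in WT libraries 1 and 2. The libraries of each group lay within 0.17 log2 units of each other, and the lowest KO value was 1.07 above the highest WT value. The difference was 1.19 (SE 0.0909), and normalized counts averaged 7047 ± 243 in KO, against 2825 ± 271 in WT (SD, n = 2 each), 2.49-fold higher. Leaving out any single library kept the difference between 1.102 and 1.27, the highest lower bound in the family, and it was 1.22 without KO A.

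Klf6, a factor induced early after tissue injury, read 13.63 and 13.81 in KO libraries A and B, against 12.24 and 12.89 in WT libraries 1 and 2. The WT libraries stood 0.65 apart, the widest distance within a group among the 10 genes, with WT 1 low. Even so both KO libraries were above both WT libraries, by 0.73 at the closest. The difference was 1.15 (SE 0.202), and counts were 12976 ± 1214 in KO, against 5716 ± 1945 in WT (SD, n = 2 each). The KO mean was 2.99-fold the count of WT 1 and 1.83-fold that of WT 2, so WT 1 sets much of the size. On the log2 scale the difference was 0.82 without WT 1 and 1.24 without KO A.

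Klf2, the quiescence factor of lymphocytes and of endothelium, read 12.55 and 12.63 in KO libraries A and B, against 11.46 and 11.75 in WT libraries 1 and 2. Again the KO libraries were close together and WT 1 was the lowest. The groups were separated by 0.79 log2 units. The difference was 0.98 (SE 0.114), with 5652 ± 257 counts in KO, against 2633 ± 448 in WT (SD, n = 2 each), 2.15-fold higher, and it was 1.02 without KO A and 0.83 without WT 1.

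Klf7, an activator best known from neurons and adipocytes, read 10.83 and 11.12 in KO libraries A and B, against 10.42 and 10.48 in WT libraries 1 and 2. Here the KO libraries, not the WT ones, were spread, and the groups were 0.35 apart. The difference was 0.52 (SE 0.117), 1.65-fold in counts, and 0.66 without KO A against 0.38 without KO B. In GENCODE M21, 38.7% of the distinct 31-base words in Klf7 transcripts also occur in the transcript of Gm26649, an annotated gene not analysed here, so reads of the 2 could be split and the value of Klf7 is uncertain.

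The 5 members that bind SIN3 had log2 differences between 0.18 and 0.57. With log2 of the count plus 1, which compresses low values less, they ran from 0.37 for Klf16 to 1.26 for Klf9. Klf10, a gene induced by TGF-beta, read 11.25 and 11.39 in KO libraries A and B, against 10.75 and 10.81 in WT libraries 1 and 2. Its groups were 0.45 apart with little spread inside either. The difference was 0.54 (SE 0.0910), and counts averaged 2063 ± 173 in KO, against 1273 ± 44.1 in WT (SD, n = 2 each), 1.62-fold higher. It was 0.61 on the log2 scale without KO A.

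Klf11, the near relative of Klf10, read 10.38 and 10.60 in KO libraries A and B, against 9.81 and 10.04 in WT libraries 1 and 2. Both groups had a similar spread of about 0.23 and were 0.33 apart. The difference was 0.56 (SE 0.124), 1.85-fold in counts, between 0.45 and 0.68 with any single library left out, and 0.68 without KO A.

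Klf13, a factor known for late expression of the chemokine gene Ccl5 in T cells, read 13.18 and 13.19 in KO libraries A and B, against 12.63 and 12.69 in WT libraries 1 and 2. It had the tightest KO libraries of the family, 0.012 log2 units apart. The difference was 0.52 (SE 0.0772), with 8796 ± 56.9 counts in KO, against 5971 ± 202 in WT (SD, n = 2 each), 1.47-fold higher. It moved least of the 9 genes that were higher, from 0.49 to 0.55 with any single library left out, and was at 0.53 without KO A.

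Klf9, a target of glucocorticoid and thyroid hormone, had the lowest level per kilobase of the 10. It read 9.70 and 9.87 in KO libraries A and B, against 9.03 and 9.40 in WT libraries 1 and 2. The log2 difference was 0.57 (SE 0.139), while the counts, 389 and 484 in KO libraries A and B, against 130 and 252 in WT libraries 1 and 2, gave a 2.29-fold higher mean. That fold was 3.36 against WT 1 and 1.73 against WT 2, so WT 1 decides much of its size. Without KO A the log2 difference was 0.65.

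Klf16, a small SIN3-binding member, read 9.64 and 9.75 in KO libraries A and B, against 9.60 and 9.43 in WT libraries 1 and 2. The lowest KO value lay 0.040 above the highest WT value, which is less than the distance inside either group, and the difference was 0.23 without KO A and 0.092 without WT 2. The difference of 0.18 (SE 0.101) is about as large as the 0.18 between the WT libraries.

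Klf3, the CtBP-binding member known from B cell and red cell development, read 12.53 and 12.76 in KO libraries A and B, against 12.71 and 12.60 in WT libraries 1 and 2. The groups overlapped. The difference was -0.014 (SE 0.104), its sign changed without KO A (0.10) and without WT 1 (0.044), and counts were 5907 ± 728 in KO, against 5952 ± 363 in WT (SD, n = 2 each). The 95% limits of the limma fit, -0.26 to 0.24, leave room for a small difference in either direction.

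**Figure D3:**
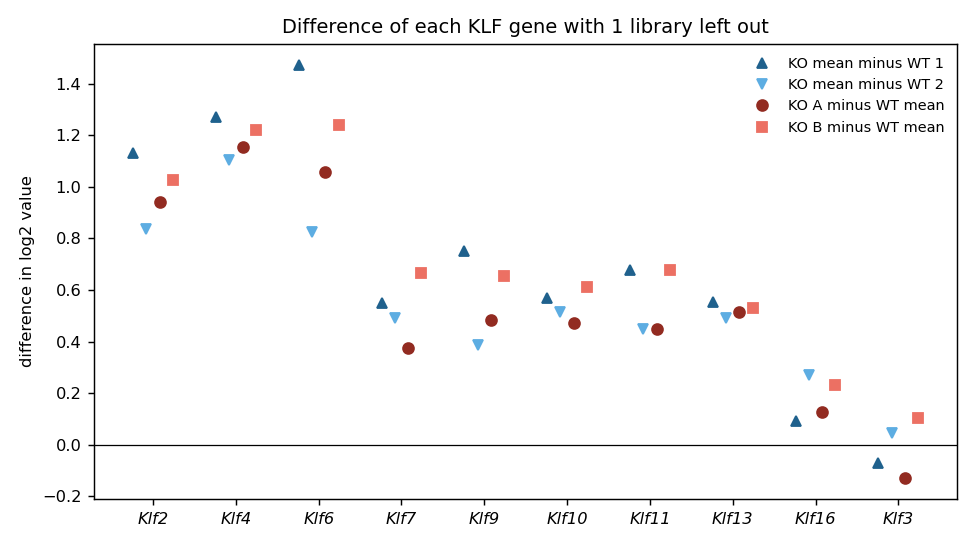
Difference in log2 value between KO and WT for each KLF gene with 1 library left out: the KO mean minus WT 1 or WT 2 alone (triangles), and KO A or KO B alone minus the WT mean (circle, square). Klf4 stays at 1.102 or above in all 4 versions, Klf6 ranges from 0.82 to 1.47, and only Klf3 has points on both sides of 0.

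Within each genotype the libraries kept 1 order in most of the 10 genes. KO A was below KO B in 10 of 10 members, against 49.6% of all genes tested. WT 1 was below WT 2 in 8 of 10, all but Klf3 and Klf16, against 53.5% of all genes tested. Immediate early genes, a list of 22 genes that respond within minutes to stimulation or tissue handling, had the same order of libraries in most genes, with KO A below KO B in 21 of 22 and WT 1 below WT 2 in 22 of 22. Their summed counts were 169704 and 196058 in KO libraries A and B, against 31799.8 and 70743.2 in WT libraries 1 and 2, and 18 of 22 passed as higher and 0 as lower, against 4.69% and 2.23% of all genes tested. Over all genes limma called 0 without KO A (2508 at an unadjusted p under 0.05) and 3 Y-linked genes without KO B. The part of this in the KLF differences was not tested.

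Per kilobase of annotated exon, Klf6 and Klf2 led in KO libraries, with 3071 ± 287 and 3060 ± 139 normalized counts per kb (SD, n = 2 each), and these levels overlapped. Below them in KO came Klf4, Klf13, Klf3 and Klf10, with no overlap between neighbours, at 2327, 1319, 1097 and 539 counts per kb. Klf11 and Klf7, at 237 and 190 counts per kb in KO, overlapped, and Klf16 and Klf9 were lowest at 145 and 97.2. In WT the top levels, of Klf2 at 1426, Klf6 at 1353 and Klf3 at 1105 counts per kb, overlapped from one to the next, Klf3 and Klf4 did not overlap, and Klf4 at 933 overlapped with Klf13 at 895. Klf10 was at 332 in WT, Klf11, Klf7 and Klf16 ran together at 128, 115 and 113, and Klf9 was at 42.5. Klf3 thus ranked 5 in KO and 3 in WT, with nearly the same level in both. Shares were taken for Klf2, Klf4 and Klf6, the members with the largest differences, and for Klf3, whose groups overlapped. A higher share of the former and a lower share of Klf3 in KO follow from that choice. Klf2, Klf4 and Klf6 together held 70.3% and 69.7% of the summed per-kb level of the 10 genes in the KO libraries A and B, against 53.6% in WT 1 and 61.0% in WT 2. The share of Klf3 was 8.69% and 9.43% in the KO libraries A and B, against 19.6% in WT 1 and 15.1% in WT 2. The exon lengths come from GENCODE M21 and join all isoforms, so levels of genes with several isoforms are approximate.

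**Figure D4:**
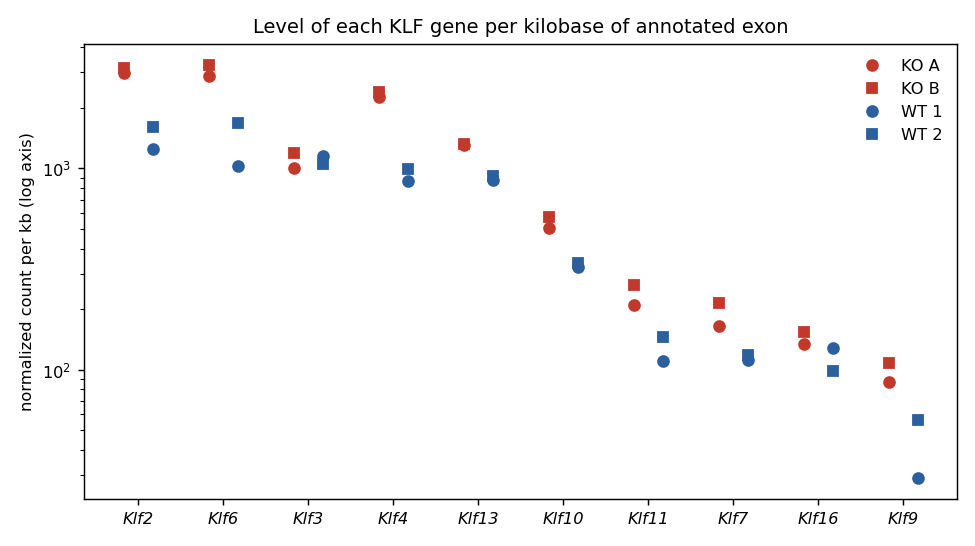
Normalized counts per kilobase of annotated exon for each KLF gene in each library, on a log axis, ordered by the WT mean, with KO in red on the left of each pair and WT in blue. Klf2, Klf6 and Klf4 in KO lie highest, with means between 2327 and 3071, and Klf9 in WT lies lowest, with a mean of 42.5.

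Apart from Klf7, the members shared little sequence with other genes. Among 31-base words of GENCODE M21 transcripts, Klf2, Klf6, Klf9 and Klf16 shared 0 with any other gene. Klf3, Klf4, Klf10, Klf11 and Klf13 shared between 0.254% and 4.53%, and words shared with another of the 10 genes numbered at most 5 in a gene.

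Of the 7 other KLF genes, 4 were in the table and all 4 were tested. Over all genes limma called 0 without KO A and 3 without KO B (2508 and 2448 at an unadjusted p under 0.05), with 0 of the 3 among the genes of the lists here, so each call named from here on ends when either KO library is left out. Klf1, the erythroid master factor, read 9.90 and 10.14 in KO libraries A and B, against 8.59 and 9.30 in WT libraries 1 and 2. It rose by 1.08 (SE 0.223, limma adjusted p = 0.0423), 4.64-fold in counts. That fold was 15.1 against WT 1 and 2.74 against WT 2, and the log2 difference was 1.20 without KO A. Of 6 tested erythroid genes, Klf1 among them, 4 were higher and 0 lower, against 4.69% and 2.23% of all genes tested. The summed counts of 7 erythroid genes, Klf1 included, were 19250.0 and 27432.8 in KO libraries A and B, against 1380 and 7524 in WT libraries 1 and 2. Klf8, a CtBP-binding repressor like Klf3, was at 9.004 and 9.07 in KO libraries A and B, against 9.45 in both WT libraries. It fell by 0.41 (SE 0.0819, limma adjusted p = 0.0389), with 0.483 of the WT count, and the log2 difference was -0.38 without KO A. Klf12, the other CtBP-binding gene, differed by -0.07 (SE 0.096, limma adjusted p = 0.703), and Klf5, an epithelial activator, by 0.27 (SE 0.159, limma adjusted p = 0.361), with 130 counts in WT 2 against 304 to 319 in the other libraries.

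Set out by branch, the 6 activator-type genes had differences between 0.27 and 1.19, and both KO libraries were above both WT libraries in 6 of 6, against 28.1% of all genes tested (28.2% below). Klf5 is among the 6 by a separation of 0.0045 and its difference was 0.019 without WT 2. The 5 SIN3-binding genes ran from 0.18 to 0.57 with 5 of 5 above. The order of single genes across these branches depends on the scale. With log2 of the count plus 1, Klf9 was at 1.26, above Klf2 at 1.11 and Klf6 at 1.22. It stayed below Klf4 at 1.32 and Klf1 at 2.65. The 3 CtBP-binding genes, Klf3, Klf8 and Klf12, ran from -0.41 to -0.014, with 0 above, 1 below and 2 overlapping. No test of a difference between the branches was made. The SP genes, which share the zinc fingers of the KLFs, had 4 tested members, of which 0 passed in limma and 3 had an unadjusted p under 0.05. Sp4 differed by 0.34 (adjusted p = 0.107), Sp1 by 0.27 (adjusted p = 0.103), Sp3 by 0.20 (adjusted p = 0.178) and Sp2 by 0.005 (adjusted p = 0.983). Sp8 and Sp9 were in the table below the filter.

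**Figure D5:**
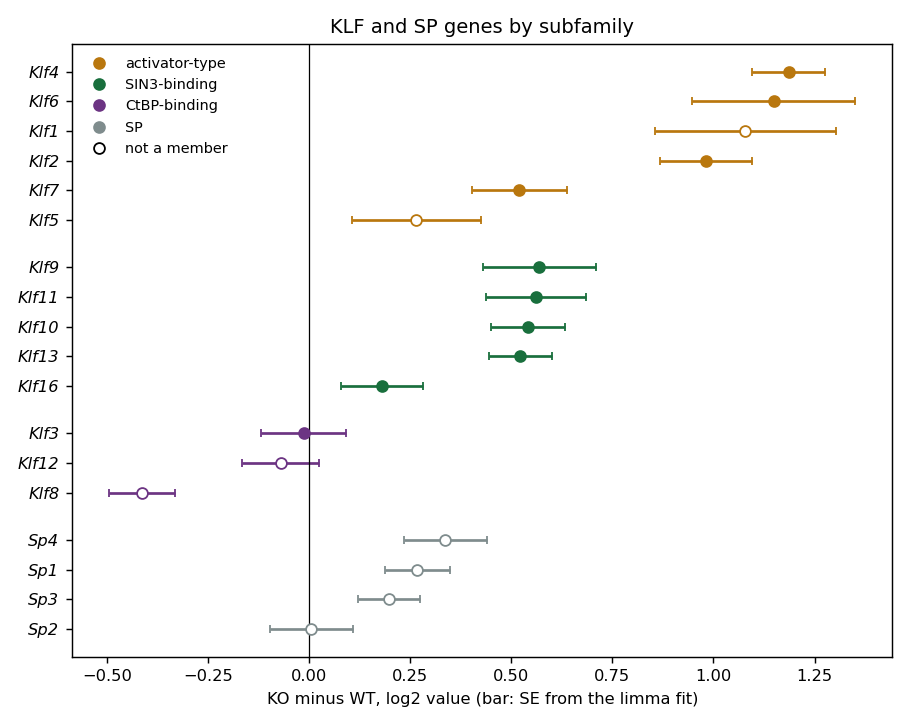
KO minus WT difference in log2 value for the KLF and SP genes tested, grouped by branch, with bars of 1 standard error from the limma fit. Filled points are the 10 genes described, open points other genes of the family. The activator-type and SIN3-binding genes lie to the right of 0, the CtBP-binding genes at or to the left of it.

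Of the genes that act on KLFs or with them, 1 passed. Among 9 genes of the ERK5, MEF2 and FOXO inputs that drive Klf2 and Klf4, 1 rose, 0 fell and 8 did not pass (median difference 0.04), a share near the 6.93% of all genes called in either direction. The one was Mef2d, a MEF2 factor, which read 12.57 and 12.45 in KO libraries A and B, against 11.96 and 12.07 in WT libraries 1 and 2, a rise by 0.50 (SE 0.0889, limma adjusted p = 0.0314). Of the 9 corepressor genes, which encode CtBP, SIN3 and histone deacetylase subunits, 0 passed in either direction, and likewise 0 of 4 coactivators and 0 of 4 ubiquitin ligases that act on KLF proteins (limma, with 0, 0 and 2 genes at an unadjusted p under 0.05). Their median differences were 0.01, 0.05 and 0.04, near the median of all genes tested. The median of the ubiquitin ligases covers opposite directions, with Itch at -0.35 and Fbxw7 at 0.21 (limma adjusted p = 0.056 and 0.177).

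Genes known to follow the same inputs or to be targets of members were also tested, and are set against 4.69% of all genes that rose and 2.23% that fell. Of 3 tested targets of KLF2 known from lymphocytes and endothelium, 1 rose, 0 fell and 2 did not pass. Thbd, the thrombomodulin gene, was at 10.87 in both KO libraries, against 10.23 in WT 1 and 10.17 in WT 2, a rise by 0.67 (SE 0.0865, limma adjusted p = 0.0191). The egress receptor gene S1pr1 and the integrin gene Itgb7 did not pass, at 0.22 and -0.11 (limma adjusted p = 0.339 and 0.521). Among 6 genes of the glucocorticoid response, which also drives Klf9, 3 rose, 0 fell and 3 did not pass. The clock gene Per1 rose by 1.61 (SE 0.196, limma adjusted p = 0.0162), the kinase gene Sgk1 by 0.59 (limma adjusted p = 0.0271) and the transcription factor gene Zbtb16 by 0.59 (limma adjusted p = 0.0227). Nr3c1, Tsc22d3 and Fkbp5 did not pass, at 0.33, 0.34 and 0.08 (limma adjusted p = 0.087, 0.078 and 0.707), and the groups of Fkbp5 overlapped. Per1 is also known as a rapid response gene and, like Klf6, was lowest in WT 1. Of 9 genes of the TGF-beta pathway, the input for which Klf10 was named, 1 rose, 0 fell and 8 did not pass. The repressor gene Tgif1 was the one, with 0.60 (SE 0.0911, limma adjusted p = 0.0233).

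Marker sums of cell types that use these factors were compared between the same libraries. Over all genes tested, 4.69% rose and 2.23% fell. Of 12 conventional dendritic cell markers, 0 rose and 7 fell. Their summed counts were 374437 and 344567 in KO libraries A and B, against 471753 and 485843 in WT libraries 1 and 2. Cd74 and H2-Ab1 made up most of these sums. Cd74, which did not pass, held 193842 and 179481 in KO libraries A and B, against 233470 and 237744 in WT libraries 1 and 2. Of 7 NK cell markers 7 rose, with sums of 11297 and 13680.1 in KO libraries A and B, against 5076 and 4762 in WT libraries 1 and 2. Of 6 monocyte markers, cells in which Klf4 is high, 3 rose and 0 fell, with sums of 56249 and 55636 in KO libraries A and B, against 35440.1 and 37388 in WT libraries 1 and 2. Of 7 macrophage markers 4 rose and 0 fell, with sums of 9625 and 13507 in KO libraries A and B, against 6473 and 5791 in WT libraries 1 and 2. Of 7 neutrophil markers 1 rose and 0 fell, with sums of 182413 and 176221 in KO libraries A and B, against 155603 and 58241 in WT libraries 1 and 2. T cell, B cell and plasmacytoid markers passed in 1 of 4, 1 of 6 and 0 of 6 tested genes (limma, with 1, 1 and 0 at an unadjusted p under 0.05). Their sums ran from 4904 to 6997, from 19562 to 21784 and from 16606 to 31997 in KO, against 4851 to 4937, 15644 to 16808 and 16872 to 21559 in WT. No marker in the table was at the floor in any library. The part of these cells in the KLF differences was not tested.

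Across the 4 libraries, the distance between log2 values centred on each gene's mean described which genes had the most similar pattern. Klf4 lay closest to Klf2 among the members (distance 0.22 log2 units), Klf10 and Klf13 to each other (0.092), and Klf9 and Klf11 to each other (0.11). Outside the family, Klf4 was nearest to Hcar2, a receptor for hydroxy-carboxylic acids (0.025), and Ifng, the interferon gamma gene (0.083). Csrnp1, an immediate early gene, came next (0.088). In WT libraries 1 and 2, Hcar2 read 8.75 and 8.90 and Ifng 8.54 and 8.73, near the floor. Differences are compressed there, so the likeness of Hcar2 and Ifng to Klf4 holds on this log2 scale only and was not measured in counts. Klf3, the only member with a negative difference, was nearest to Tbc1d7 (0.0099), Lrrc57 (0.018) and Vmn2r97 (0.021). Tbc1d7 read between 8.99 and 9.21 and Lrrc57 between 9.44 and 9.68, so these likenesses too hold on this log2 scale only. The groups of Klf3 overlapped, so its likenesses describe the spread between libraries.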

How the data were processed

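The deposited table holds log2 values made by the authors with a variance-stabilizing transform of counts, as its name and its values show, already scaled between libraries. The submitters' processing notes name Salmon (1.10.1), DESeq2 and the build GRCm39 without their roles, and the annotation is not given in the sources used here. Per the labels' protocols, libraries came from a stranded total RNA kit for small inputs. Symbols came from GENCODE M21 (17289 of 17300 identifiers matched). Counts were recovered from the shared lowest value alone. Genes with a mean at least 1 log2 unit above it were tested in limma 3.58.1 under R 4.3.3 (empirical Bayes, intensity trend, two-sided, Benjamini-Hochberg over 11864 genes, threshold 0.05, 6.48 total degrees of freedom), after a check on simulated data. All 10 members and the other KLF and SP genes in the table were named. From the other lists at most 4 genes with the smallest p among those past the threshold were named. S1pr1, Itgb7, Itch, Fbxw7, Nr3c1, Tsc22d3, Fkbp5 and Cd74 were named after their values were seen. The members, the lists and the tests were chosen with earlier results of these data known. Motif matches used Python 3.11.15. For 1 list, 1 gene is not reported here and was left out of its count.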

Additional observations from a re-analysis of the deposited data

How the results depend on the processing

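Other settings were a filter at 2 log2 units, no filter, quantile normalization, no intensity trend, and log2 of the count plus 1 or 8. Under them between 5 and 7 KLF genes passed, all higher, against 6 of 10 in the chosen fit. The filter at 2 log2 units left 8 of the 10 KLF genes to be tested, of which 7 passed. Over all genes, 822 passed, 557 higher and 265 lower, and with quantile normalization 366 higher and 282 lower. With 1 library left out, between 0 and 7 KLF genes and between 0 and 820 of all genes passed. Without KO A limma called 0 of all genes (2508 at an unadjusted p under 0.05), and without KO B 3 (2448). These fits have fewer samples, with 1 library in a group that is assumed to vary like the other group. Klf3 changed sign without KO A (0.10) and without WT 1 (0.044), against -0.13 without KO B and -0.071 without WT 2, and no other KLF gene changed sign under any of these settings. Of 98 differences of single KLF genes under these settings, 17 left the threshold and 3 came past it. No paired analysis was possible because the KO columns carry other replicate numbers than the KO titles. The depth in reads is unknown. Low values are compressed, and Klf9 differed by 0.57 here against 1.26 with log2 of the count plus 1.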
